A study of Mus musculus with 6 samples.

Results

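The nuclear-encoded genes of oxidative phosphorylation were described in 6 subcutaneous CT26 tumors, 3 from vehicle-treated mice and 3 from mice given TP-18. CT26 is a murine colorectal carcinoma line. The hosts were female BALB/c mice aged 6 to 8 weeks, the strain the line comes from, and every tumor of both groups grew from that one line. TP-18 blocks the prostaglandin E2 receptors EP2 and EP4, according to the series title, and was given orally at 50 mg/kg once daily for 3 weeks. Members were all protein-coding genes of the count table whose symbol starts with Nduf, Uqcr, Cox4 to Cox8 or Atp5, or is Sdha, Sdhb, Sdhc or Sdhd. The rule uses names only and no measured value. It found 97 of 23122 genes, of which 17574 are protein-coding: 49 for complex I, 4 for complex II, 8 for complex III, 19 for complex IV and 17 for complex V. The symbols also bring in 8 assembly factors of complex I (Ndufaf genes), 4 retrocopies or variants (Ndufab1-ps, Ndufb4b, Ndufb4c and Ndufs6b), 7 tissue-restricted isoforms of complex IV and the supercomplex factor Cox7a2l. Ndufa4 and Ndufa4l2 were placed in complex IV, where the Ndufa4 protein is known to reside.

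Oxidative phosphorylation takes electrons from NADH through complex I and from succinate through complex II to ubiquinone, then through complex III and cytochrome c to complex IV, which reduces oxygen. Complexes I, III and IV pump protons across the inner mitochondrial membrane, and complex V, the ATP synthase, uses the gradient to make ATP. Except for complex II, each complex joins subunits encoded in the nucleus with subunits encoded in mitochondrial DNA, so its assembly draws on both genomes. Many tumor cells, colorectal carcinoma lines included, keep an active respiratory chain beside glycolysis.

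Each library held 34813482 to 36489081 counts, and the members took 0.926%, 0.926% and 0.939% of them in vehicle tumors 1 to 3 and 0.92%, 0.862% and 0.924% in TP-18 tumors 1 to 3. Of the 97 members, 94 passed the filter on low counts. The 3 that did not are tissue-restricted isoforms of complex IV: Cox6b2, a testis form, had counts of 3, 2 and 1 in vehicle and 4, 10 and 4 in TP-18 tumors. Cox7b2 had 4, 0 and 0 counts in vehicle tumors and none in TP-18 tumors. Cox8b, a heart and skeletal muscle form, had 4, 2 and 0 against 9, 1 and 8. As a class the members were strongly expressed: 32 had a mean FPKM (counts divided by gene length and by the library total) over 100, a level that 592 of all 14189 tested genes reached. The most abundant member per length in each complex was Ndufa7 in complex I (mean of 184 FPKM over the 6 tumors), Sdhd in complex II (77.5), Uqcrh in complex III (207), Cox4i1 in complex IV (456) and Atp5b in complex V (664).

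In TP-18 tumors most members had somewhat lower values than in vehicle tumors, but few differences passed the test. On the scale of CPM, counts scaled to a common library size, here after TMM normalization, the members summed to 9265, 9870 and 10231 in vehicle tumors and to 8773, 8339 and 8643 in TP-18 tumors. The groups did not overlap, and the means of 9789 ± 488 and 8585 ± 223 (SD, n = 3) differed by 12.3%. Under edgeR's quasi-likelihood test, with p adjusted over all tested genes by the method of Benjamini and Hochberg, 6 of 94 members (6.38%) fell and 0 rose at an adjusted p under 0.05. Of all tested genes 12.4% were called, 5.26% lower and 7.09% higher, so the share of members that fell was near the background. The 6 were Ndufa7, Ndufb11, Uqcrq, Cox6a1, Cox6a2 and Cox7a2l. At an unadjusted p under 0.05, 28 members were lower and 0 were higher, against 14.6% and 15.3% of all tested genes. DESeq2 also called 6 members lower and 0 higher, against 8.22% and 9.77% of the genes it tested, and limma-voom gave 6 and 0 as well, against 5.1% and 7.25%.

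The direction was more uniform than the calls. The log2 fold change (TP-18 minus vehicle) was below 0 in 84 of 94 members, against 51.1% of all tested genes, and its median was -0.18 (quartiles -0.26 and -0.06) against -0.01 (-0.20 and 0.26). In 35 of 94 members (37.2%) every TP-18 tumor lay below every vehicle tumor, which was so for 17.8% of all tested genes. In 0 members did every TP-18 tumor lie above every vehicle tumor, against 18% of all tested genes. The 10 members with a fold change above 0 were Ndufa3, Ndufb2, Ndufb3, Ndufb7, Ndufs8, Ndufaf3, Ndufaf8, Sdhb, Uqcrc1 and Cox4i2, and in each of these the groups overlapped.

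These directions depend on how libraries are scaled. TMM factors were 1.00, 0.938 and 0.918 for vehicle and 1.05, 1.03 and 1.07 for TP-18 tumors, so the scaling itself lowers TP-18 values relative to vehicle. By library totals alone the members summed to 9257, 9259 and 9391 CPM in vehicle and 9200, 8620 and 9240 CPM in TP-18 tumors. The groups still did not overlap, but TP-18 tumor 3 came close to the lowest vehicle tumor, and the means were 9302 ± 76.8 and 9020 ± 347. The log2 fold change was then below 0 in 55 of 94 members with a median of -0.03, while the median of all tested genes moved to 0.13. The median of the members minus that of all tested genes was -0.17 under both scalings, which by construction shift all genes by about the same amount and so hardly alter this difference. By library totals 11 members (11.7%) had all TP-18 tumors below all vehicle tumors and 3 had them above, against 7.67% and 27.9% of all tested genes. Of the 6 calls, those of Ndufa7 (log2 fold change -0.28, adjusted p = 0.0392, edgeR) and Uqcrq (-0.34, adjusted p = 0.0493) were left, against 1.89% of all tested genes called lower.

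**Figure D1:**
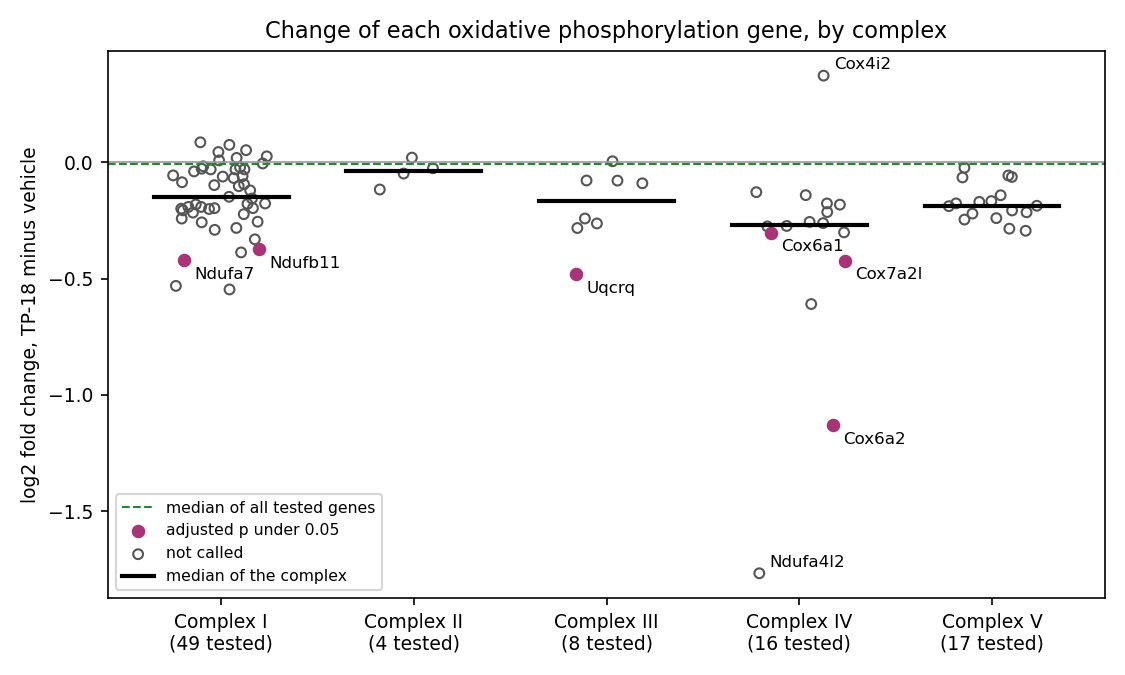
Log2 fold change of each tested member (TP-18 minus vehicle, edgeR with TMM scaling), grouped by complex, with called members as filled points, uncalled members as open points, the median of each complex as a black bar and the median of all tested genes as a dashed line. Most points of every complex lie below 0, the median of complex II lies nearest to 0 under this scaling, and the 6 called members belong to complexes I, III and IV.

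With TMM scaling the tumors of a group also differed among themselves in a shared way. Vehicle tumor 3 had the highest vehicle CPM in 54 of 94 members and vehicle tumor 1 the lowest in 40. TP-18 tumor 2 had the lowest TP-18 CPM in 47. On this scale vehicle tumors were the more variable group. Over the 83 members with a mean CPM of at least 10, the median coefficient of variation was 7.61% in vehicle and 4.61% in TP-18. The same order held for all 9395 genes at that level, with 9.39% and 6.63%. By library totals the summed members varied less in vehicle than in TP-18 tumors, with an SD of 76.8 against 347 CPM. The vehicle sums were then 9257, 9259 and 9391 CPM, so the shared pattern and the order of spread depend on the scaling. Because these are bulk samples, fewer cells of a type and less RNA per cell cannot be told apart in any of these values.

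Complex I oxidizes NADH. Its 49 members summed to 2410, 2445 and 2535 CPM in vehicle tumors and to 2261, 2168 and 2220 CPM in TP-18 tumors, a mean difference of 10.0% with no overlap. Their median log2 fold change was -0.15, and 2 fell (4.08%, against 5.26% of all tested genes). In 15 (30.6%) every TP-18 tumor lay below every vehicle tumor, against 17.8% of all tested genes. By library totals the sums were 2408, 2294 and 2327 against 2371, 2241 and 2373 CPM, and the groups overlapped.

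By role, differences between the groups of complex I genes were not tested, and their fold changes overlapped. The 7 core subunits, which carry the flavin, the iron-sulfur clusters and the quinone site, had a median log2 fold change of -0.06 (quartiles -0.15 and -0.04), and 0 were called. Ndufs1, the large iron-sulfur subunit, had CPM values of 76.4, 91.5 and 87.7 in vehicle and 82.7, 82.2 and 85.2 in TP-18 tumors (log2 fold change -0.03, adjusted p = 0.842 by edgeR's quasi-likelihood test). Ndufv1, which binds the flavin and NADH, had 84.8, 90.4 and 71.0 against 72.0, 65.9 and 68.4 (-0.26, adjusted p = 0.134). In both genes the groups overlapped. Ndufv2, the core subunit without overlap under TMM scaling, had 114, 108 and 120.3 CPM against 104, 95.7 and 97.1 (-0.21, adjusted p = 0.112, edgeR). It was included after its values were seen. In FPKM its groups overlapped, at 61.7 in the lowest vehicle and 66.3 in the highest TP-18 tumor. The 8 assembly factors, which build the complex but are not part of it, had a median of -0.04, 0 calls and 0 members without overlap. The 4 retrocopies or variants had a median of -0.46 but low levels, with sums of 6.97, 6.09 and 9.18 CPM against 5.32, 5.61 and 5.46, and reads of near-identical parent genes could be counted among theirs.

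The 30 accessory subunits surround the core and serve its assembly and stability. Their median was -0.18 (quartiles -0.22 and -0.04), and 2 fell (6.67%, against 5.26% of all tested genes). In 12 (40%) the groups did not overlap, against 17.8% of all tested genes in the same direction. Ndufa7 had 103, 112 and 121 CPM in vehicle tumors and 83.3, 83.7 and 83.5 CPM in TP-18 tumors. The TP-18 values lay within 1 CPM of each other and below every vehicle value. The means were 112 ± 8.78 and 83.5 ± 0.183 (SD, n = 3), and Ndufa7 fell by 0.42 ± 0.08 (SE) on the log2 scale (adjusted p = 0.0168, edgeR). Ndufb11, a small subunit of the membrane arm encoded on the X chromosome, had 119, 133 and 138 CPM against 99.9, 97.7 and 103. The groups did not overlap, the means were 130 ± 9.89 and 100.3 ± 2.80, and Ndufb11 fell by 0.38 ± 0.08 (adjusted p = 0.0248, edgeR). Ndufs5, an accessory subunit of the membrane arm, had the smallest p among uncalled members of the complex, with 35.3, 32.1 and 34.6 CPM against 26.4, 28.7 and 28.8 (log2 fold change -0.28 ± 0.09, adjusted p = 0.068, edgeR). With TMM scaling its TP-18 values also lay below all vehicle values, without passing the threshold. In FPKM its groups overlapped, at 59.1 in the lowest vehicle and 60.5 in the highest TP-18 tumor.

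**Figure D2:**
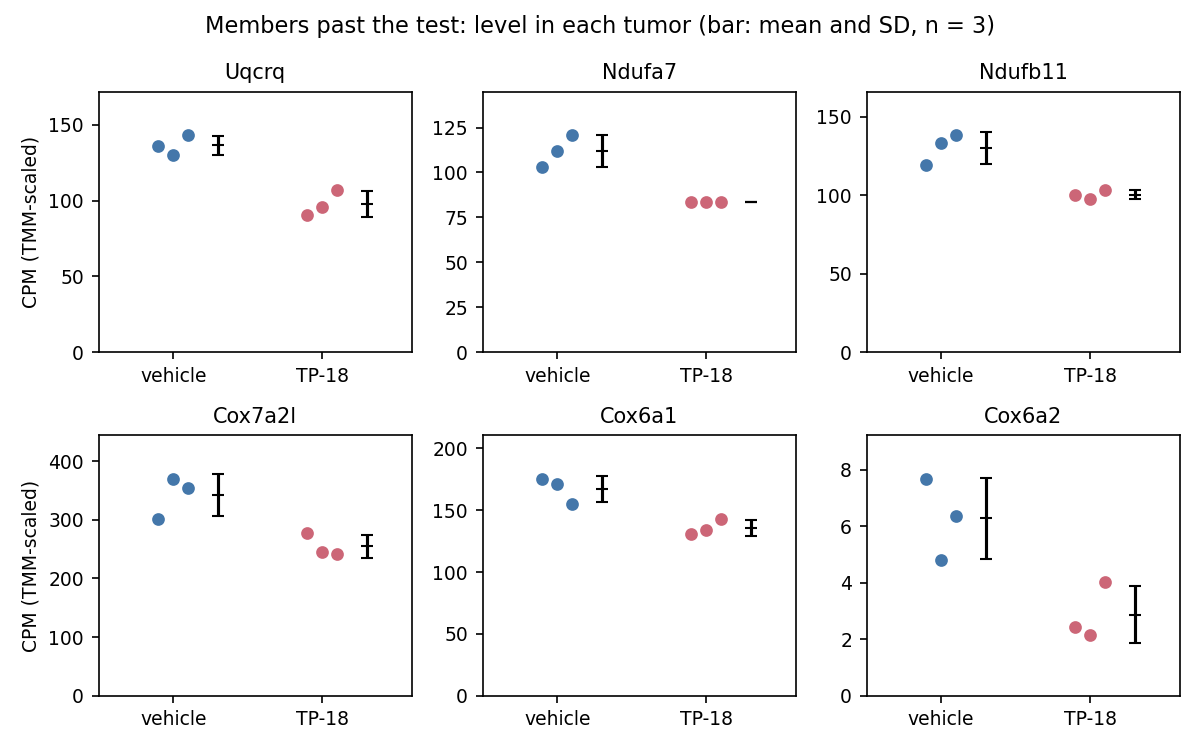
CPM (TMM-scaled) of the 6 called members in each tumor, as points beside a bar for the group mean and SD (n = 3), with 1 panel per gene, each with its own axis from 0. In all 6 panels the 3 TP-18 tumors lie below the 3 vehicle tumors, most closely grouped for Ndufa7 (83.3 to 83.7 CPM) and at the lowest level for Cox6a2.

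Complex II, succinate dehydrogenase, works in both the tricarboxylic acid cycle and the respiratory chain, and all its subunits are encoded in the nucleus. Its 4 genes summed to 480.9, 519.8 and 485.6 CPM in vehicle and 486.9, 470.5 and 482.2 CPM in TP-18 tumors, so that the groups overlapped, with a mean difference of 3.14% and a median log2 fold change of -0.04. Scaled by library totals, the sums were 480.4, 487.6 and 445.8 against 510.6, 486.4 and 515.4 CPM, with the mean of the TP-18 tumors the higher and the groups again overlapping. The flavoprotein Sdha had 208, 233 and 206 CPM against 214, 206 and 206 (-0.05, adjusted p = 0.712, edgeR). The iron-sulfur subunit Sdhb had 81.9, 80.9 and 79.1 against 81.9, 76.6 and 86.7 (0.02, adjusted p = 0.887). Neither gene separated the groups. The membrane anchors were Sdhc, with 103, 100.4 and 93.0 CPM against 91.2, 90.1 and 91.6 (-0.12, adjusted p = 0.305, edgeR), and Sdhd, with a log2 fold change of -0.03 (adjusted p = 0.874). With TMM scaling Sdhc was the member of the complex whose groups did not overlap. In FPKM, which uses library totals, its groups overlapped, at 65.9 to 79.3 in vehicle and 71.9 to 75.6 in TP-18 tumors. By library totals its log2 fold change was 0.024 (adjusted p = 0.880, edgeR).

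Complex III, the cytochrome bc1 complex, passes electrons from ubiquinol to cytochrome c. Its 8 genes summed to 745.9, 759.7 and 816.9 CPM in vehicle and 663.0, 665.6 and 674.5 CPM in TP-18 tumors, a mean difference of 13.7% with no overlap. By library totals the sums were 745.2, 712.6 and 749.9 against 695.3, 688.0 and 721.0 CPM, and TP-18 tumor 3 then lay above vehicle tumor 2. The median log2 fold change was -0.17, and 4 genes showed no overlap (50%, against 17.8% of all tested genes). Of the 8, 1 gene fell (12.5%, against 5.26% of all tested genes). That gene was Uqcrq, a small subunit next to the ubiquinone-binding region. Uqcrq had 136, 130.2 and 143 CPM in vehicle tumors and 90.2, 96.0 and 107 CPM in TP-18 tumors. Its highest TP-18 value lay well under its lowest vehicle value, the means were 136 ± 6.40 and 97.7 ± 8.48, and it fell by 0.48 ± 0.09 on the log2 scale (adjusted p = 0.0149, edgeR). This was the smallest adjusted p of all members.

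The other 7 genes of complex III did not pass the test. The Rieske iron-sulfur protein Uqcrfs1 had 71.7, 81.8 and 81.9 CPM against 74.4, 75.0 and 73.4 (-0.08, adjusted p = 0.539, edgeR). The core protein Uqcrc1 had 124, 104 and 101 CPM against 110.4, 105 and 114 (0.0040, adjusted p = 0.983). Both genes had overlapping groups, and vehicle tumor 1 was the lowest vehicle tumor for Uqcrfs1 and the highest for Uqcrc1. The other core protein, Uqcrc2, included after its values were seen, had 118, 129.8 and 138 CPM against 105, 113 and 103 (-0.26, adjusted p = 0.0798, edgeR). Unlike in Uqcrc1, all its TP-18 values lay below all its vehicle values. Uqcrc2 passed the threshold without vehicle tumor 1 (adjusted p = 0.0408, edgeR). In the other fits with 1 tumor left out the adjusted p was 0.110 to 0.240. By library totals its log2 fold change was -0.12 (adjusted p = 0.317, edgeR). Uqcrb, which lies near the quinone site, had 86.9, 91.9 and 100.2 CPM against 76.8, 79.5 and 79.7 (-0.24, adjusted p = 0.0788, edgeR). The hinge protein Uqcrh, which helps cytochrome c dock, had 107, 122 and 146 CPM against 107, 100.3 and 100.2 (-0.28, adjusted p = 0.139, edgeR). Uqcrb separated the groups, whereas in Uqcrh vehicle tumor 1 stood with the TP-18 tumors.

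Complex IV, cytochrome c oxidase, had the lowest median log2 fold change of the 5 complexes, -0.27. Its 16 tested genes held 3 of the 6 calls (18.75% of them, against 5.26% of all tested genes). Of these 16 genes, 15 had a fold change below 0 and 9 had no overlap (56.25%, against 17.8% of all tested genes). Their sums were 1903, 2064 and 2198 CPM in vehicle and 1747, 1643 and 1714 CPM in TP-18 tumors, a mean difference of 17.2%. By library totals the sums were 1902, 1937 and 2017 against 1833, 1698 and 1833 CPM, and here too no TP-18 tumor reached a vehicle tumor.

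**Figure D3:**
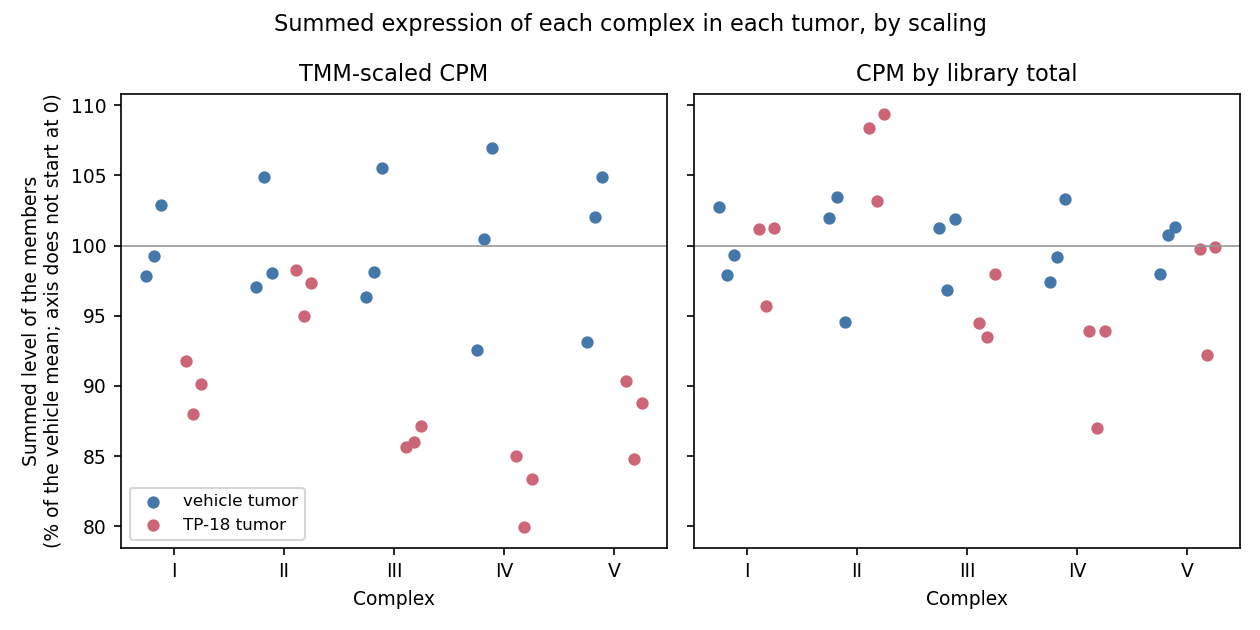
Summed CPM of the members of each complex in each tumor, as a percentage of the vehicle mean, with TMM scaling on the left and by library total on the right, on an axis that does not start at 0. With TMM scaling complexes I, III, IV and V have all TP-18 tumors below all vehicle tumors, while by library total this holds for complex IV alone.

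Among the 11 common subunits of complex IV, all had a log2 fold change below 0 (median -0.26), against 51.1% of all tested genes. Of these 11, 1 fell (9.09%, against 5.26% of all tested genes). This was Cox6a1, the widely expressed form of subunit VIa, which sits at the dimer interface. Cox6a1 had 175, 171 and 155 CPM in vehicle and 130.5, 134 and 143 CPM in TP-18 tumors. With this scaling the groups did not overlap, the means were 167 ± 10.6 and 136 ± 6.24, and it fell by 0.30 ± 0.08 (adjusted p = 0.0446, edgeR). In FPKM, which uses library totals, they overlapped, with 326, 298 and 265 in vehicle and 254, 257 and 283 in TP-18 tumors. By library totals the log2 fold change of Cox6a1 was -0.16 (adjusted p = 0.296, edgeR). Cox4i1, the common form of the regulatory subunit IV, had 354, 401 and 390.0 CPM against 337, 291 and 326 (-0.26, adjusted p = 0.0935, edgeR). It was the most abundant member of the complex and the one with the smallest p among the uncalled, again with all TP-18 tumors below all vehicle tumors. By library totals the fold change of Cox4i1 stayed below 0, whereas Cox5a and Cox8a turned to fold changes of 0.0025 and 0.013.

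Other common subunits followed with values that missed the threshold. Cox5a, a subunit on the matrix side, had 90.9, 93.3 and 99.6 CPM against 80.9, 90.7 and 85.7 (-0.14, adjusted p = 0.257, edgeR). Cox8a had 162, 157 and 154 CPM against 146, 146 and 142 (-0.13, adjusted p = 0.236). Ndufa4 had 65.9, 56.5 and 62.4 CPM against 50.7, 46.1 and 56.0 (-0.27, adjusted p = 0.109). With TMM scaling the groups did not overlap in these genes, though in Cox5a TP-18 tumor 2 came close to vehicle tumor 1. In FPKM the groups overlapped in each of them. In Cox6b1, which joins the monomers of the dimer, the groups overlapped through vehicle tumor 1, with 142, 159 and 182 CPM against 142, 132 and 124 (-0.28, adjusted p = 0.126, edgeR). Cox7a2 had 71.6, 78.5 and 99.8 CPM against 67.5, 69.1 and 72.6 (-0.26, adjusted p = 0.204), with the same tumor as the point of overlap.

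Cox7a2l, also called SCAF1, is a paralog of subunit VIIa that links complexes III and IV into supercomplexes. It had 301, 370 and 355 CPM in vehicle and 277, 245 and 242 CPM in TP-18 tumors. The groups did not overlap, the means were 342 ± 35.9 and 255 ± 19.5, and it fell by 0.42 ± 0.10 (adjusted p = 0.0347, edgeR).

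The tissue-restricted isoforms of complex IV replace common subunits in particular tissues, and some are taken as marks of muscle. Cox6a2, the heart and skeletal muscle form of subunit VIa, had 7.68, 4.81 and 6.37 CPM in vehicle and 2.42, 2.16 and 4.03 CPM in TP-18 tumors. All TP-18 values lay below all vehicle values, the means were 6.29 ± 1.44 and 2.87 ± 1.01, and it fell by 1.13 ± 0.30 on the log2 scale (adjusted p = 0.0471, edgeR). Muscle markers moved the other way. Of 22 tested genes of a skeletal muscle list, 11 rose and 0 fell, against 7.09% and 5.26% of all tested genes. Their summed level was 107, 123 and 116 CPM in vehicle and 223, 158 and 239 CPM in TP-18 tumors. Atp2a1, the calcium pump of fast muscle, had 1.37, 2.27 and 1.06 CPM against 8.84, 8.07 and 10.6 (2.55 ± 0.30, adjusted p = 0.00362, edgeR), and the fast myosin Myh4 rose by 2.05. The heart and slow muscle myosin Myh7 had 0 to 2 counts in every tumor. The part of muscle in the Cox6a2 result was not tested.

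Cox7a1, another muscle isoform, had 1.56, 1.53 and 2.94 CPM against 1.40, 1.40 and 1.15 (-0.61, adjusted p = 0.281, edgeR). Ndufa4l2, a paralog of Ndufa4 known to be induced in hypoxia, had 4.38, 7.20 and 23.7 CPM against 3.92, 4.43 and 2.00 (-1.77 ± 0.70, adjusted p = 0.158), and vehicle tumor 3 stood far above all other tumors. Cox4i2, a form found in lung and also tied to hypoxia, had 0.882, 0.949 and 1.12 CPM against 1.59, 1.42 and 0.820 (0.37 ± 0.36, adjusted p = 0.524). Of these 3 genes, Cox7a1 alone separated the groups with TMM scaling, at levels under 3 CPM. In FPKM the groups of Cox7a1 overlapped.

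Within each pair of forms, the share of the restricted form was taken from FPKM, which allows for gene length. Cox6a2 made up 3.45%, 2.24% and 3.24% of Cox6a FPKM in vehicle and 1.49%, 1.30% and 2.25% in TP-18 tumors. TP-18 tumor 3 lay just above vehicle tumor 2, so the groups touched, and the difference of -1.30 percentage points had an exact two-sided permutation p of 0.20. The Ndufa4l2 share was 2.79%, 5.21% and 14.1% in vehicle and 3.23%, 3.98% and 1.52% in TP-18 tumors (exact permutation p = 0.30), and its difference of -4.45 percentage points was -1.09 without vehicle tumor 3. Cox4i2 made up 0.261%, 0.248% and 0.302% of Cox4 FPKM in the vehicle group, and 0.492%, 0.511% and 0.264% in the TP-18 group (exact permutation p = 0.20). The Cox7a1 share was 3.46%, 3.10% and 4.60% against 3.29%, 3.21% and 2.54%, and the Cox8b share 0.105%, 0.0586% and 0% against 0.249%, 0.0282% and 0.217% (exact permutation p = 0.30 for each). Without vehicle tumor 3 the Cox7a1 difference went from -0.71 to -0.27 percentage points. All 5 shares had an adjusted p of 0.30, and with 3 against 3 tumors such a test cannot go below 0.10. The common form made up the bulk of each pair in every tumor, the lowest being Ndufa4 in vehicle tumor 3.

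**Figure D4:**
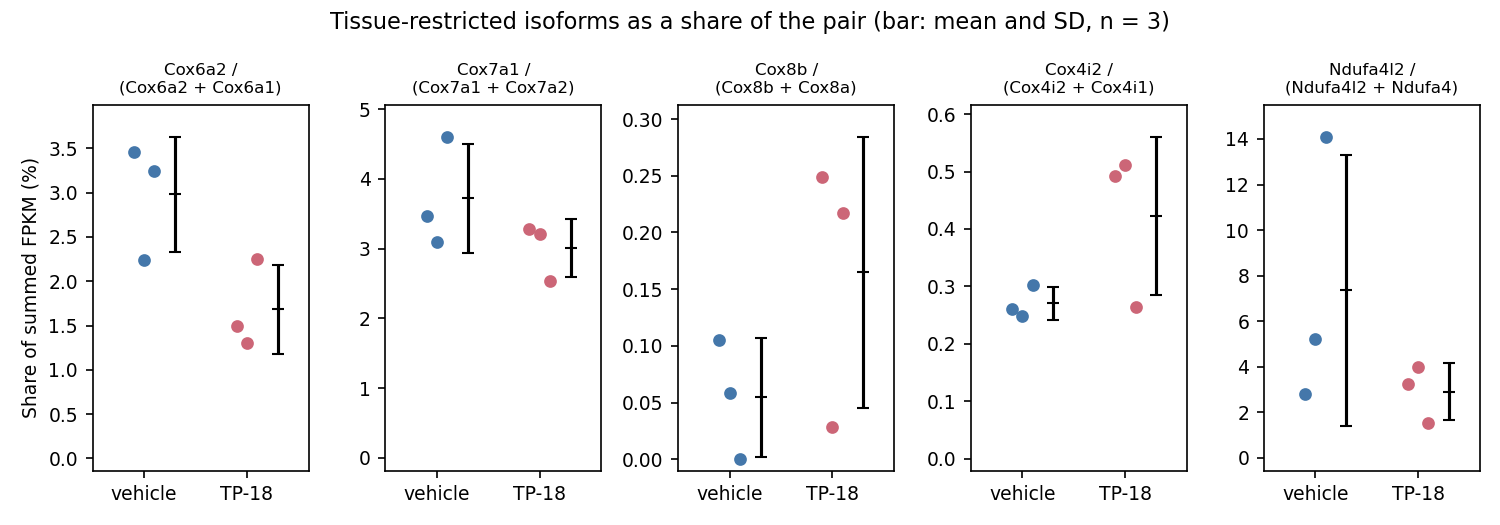
Share of the tissue-restricted isoform in the summed FPKM of its isoform pair, in percent, per tumor, as points beside a bar for the group mean and SD (n = 3), with 1 panel per pair, each with its own axis. In each panel the groups overlap, and vehicle tumor 3 stands apart for Ndufa4l2 (14.1%).

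Complex V makes ATP. All of its 17 members had a log2 fold change below 0, with a median of -0.19, but 0 were called, against 5.26% of all tested genes called lower. In 6 (35.3%) the groups did not overlap, against 17.8% of all tested genes in the same direction. The sums were 3726, 4081 and 4196 CPM in vehicle and 3614, 3391 and 3553 CPM in TP-18 tumors, a mean difference of 12.0%. On library totals they were 3722, 3828 and 3851 against 3790, 3506 and 3798 CPM, and the groups overlapped. The catalytic beta subunit Atp5b, the most abundant member of all per length, had 1225, 1430 and 1425 CPM against 1159, 1116 and 1165. With TMM scaling no TP-18 tumor reached a vehicle tumor, yet vehicle tumor 1 was close. The log2 fold change of -0.25 ± 0.10 had an adjusted p of 0.126 (edgeR). In FPKM the groups of Atp5b overlapped, at 652 in the lowest vehicle and 663 in the highest TP-18 tumor. The alpha subunit Atp5a1, its partner in the F1 head, had 622, 656 and 628 CPM against 625, 573 and 624 (-0.07, adjusted p = 0.622, edgeR). Its groups overlapped, and by library totals its fold change was 0.08.

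By role, the median log2 fold change was -0.22 for the 5 genes of the F1 head, -0.19 for the 3 genes of the rotating c ring, -0.10 for the 4 genes of the peripheral stalk and -0.19 for 5 other membrane subunits. Atp5h, subunit d of the stalk, had the smallest p of the complex, with 78.0, 76.7 and 80.0 CPM against 67.2, 68.8 and 67.2 (-0.21, adjusted p = 0.0783, edgeR). With this scaling its groups lay clearly apart, although the difference missed the threshold. In FPKM they nearly touched, at 105.86 in the lowest vehicle and 105.71 in the highest TP-18 tumor. By library totals the log2 fold change of Atp5h was -0.065 (adjusted p = 0.598, edgeR). Atpif1, the ATP synthase inhibitor, is outside the naming rule and had 77.8, 76.8 and 68.7 CPM against 61.8, 54.8 and 65.1 (-0.30, adjusted p = 0.0723, edgeR). It too had all TP-18 values below all vehicle values with TMM scaling. In FPKM its groups overlapped, and by library totals its log2 fold change was -0.16 (adjusted p = 0.388, edgeR). Other related genes outside the rule did not share this direction or separation. Dmac2 (0.42, adjusted p = 0.176, edgeR) and Dmac2l (0.15, adjusted p = 0.684) had all TP-18 values above all vehicle values. In Cyc1 (-0.05, adjusted p = 0.666) the groups overlapped.

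The 6 calls did not all hold when single tumors were left out. Without vehicle tumor 1 there were 11 members called lower (6.99% of all tested genes), among them Cox7a2l, Ndufa7, Ndufb11 and Uqcrq. Without vehicle tumor 2 there was 1, Uqcrq (0.766% of all tested genes). Without vehicle tumor 3 there were 4, which were Cox6a1, Ndufa7, Ndufv1 and Uqcrq (2.98%). Without TP-18 tumor 1 there were 0 (1.07%), and likewise 0 without TP-18 tumor 2 (1.49%). Without TP-18 tumor 3 there were 2, which were Cox6a2 and Uqcrq (0.77%). In each fit with fewer calls among the members, calls over all genes were fewer too. Adjusted p by edgeR ranged over these 6 fits from 0.0201 to 0.0545 for Uqcrq, from 0.00879 to 0.0722 for Ndufa7 and from 0.0113 to 0.0899 for Ndufb11. The ranges were 0.0133 to 0.131 for Cox7a2l, 0.0430 to 0.146 for Cox6a1 and 0.0491 to 0.138 for Cox6a2. Uqcrq was thus the member whose call held most often, in 4 of the 6 fits, and Ndufa7 held in 2.

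**Figure D5:**
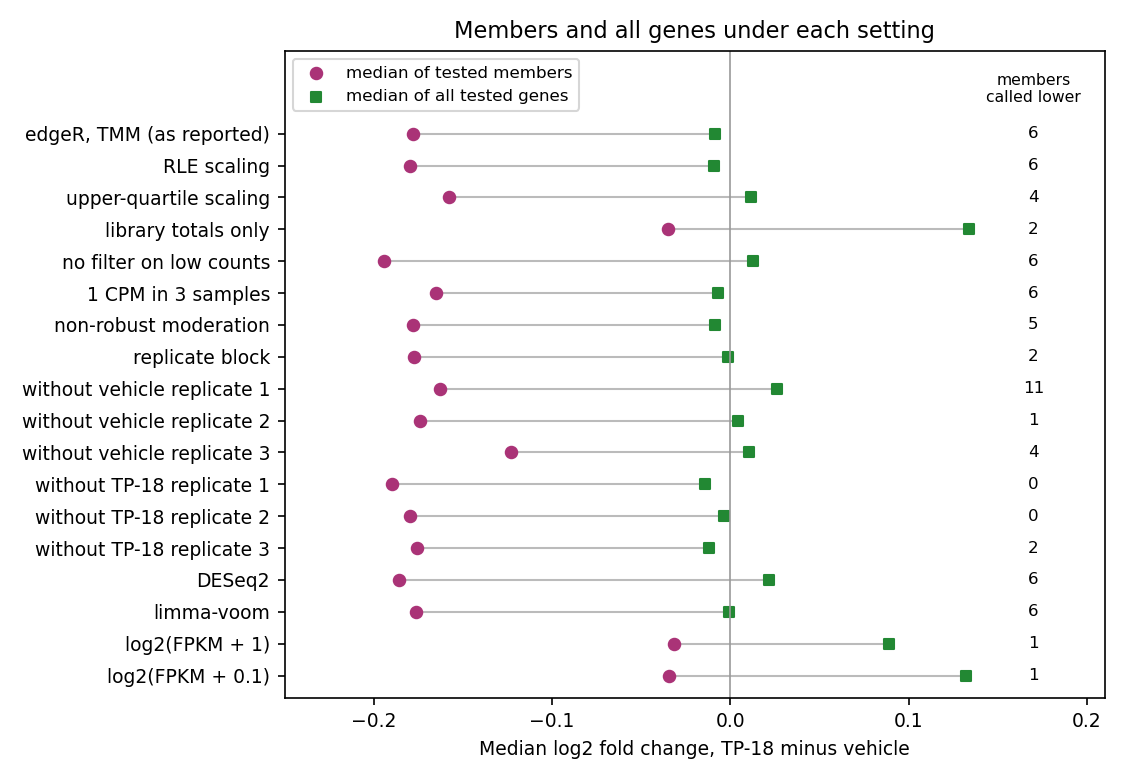
Median log2 fold change of the members and of all tested genes (TP-18 minus vehicle) under each scaling, filter, tool and left-out tumor, with the count of members called lower at the right. The member median lies below the all-gene median under every setting shown, while its distance from 0 shrinks to -0.03 by library totals and on FPKM.

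The called members were placed on the genome by the RefSeq annotation of GRCm38.p6: Uqcrq (Entrez 22272) at chr11:53427922-53430831, Ndufa7 (66416) at chr17:33824572-33838316, Ndufb11 (104130) at chrX:20615326-20617619, Cox7a2l (20463) at chr17:83501917-83514333, Cox6a1 (12861) at chr5:115345652-115348958 and Cox6a2 (12862) at chr7:128205435-128206366. They lie on 5 chromosomes. The spans of 3 of them overlap another gene, and the strandedness of counting is not given in the sources used here. Ndufb11 shares sequence with Rbm10, which had 1901, 1650 and 1563 counts in vehicle and 1900, 1757 and 1950 in TP-18 tumors. Cox6a2 overlaps Itgad, with 0 to 3 counts per tumor, and Uqcrq overlaps Gdf9, with 3 to 12 counts.

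Nuclear respiratory chain promoters are known for sites of NRF1 and of ETS factors such as GABP, which coordinate these genes with mitochondrial biogenesis. The 250 bases before an annotated start are shown for the 4 called members that the RefSeq promoter table (GRCm38.p6) holds, so that the genes that fell can be compared at their starts. Each is written 5′ to 3′ on the strand of the gene, which is plus for Ndufa7 and minus for the other 3, and capitals mark letters matching the NRF1 motif (GCGCA and GCGC with 1 free base between them) or the ETS motif (CCGGAAG) on either strand. The windows are chr5:115348959-115349208 for Cox6a1, chr17:33824322-33824571 for Ndufa7, chrX:20617620-20617869 for Ndufb11 and chr17:83514334-83514583 for Cox7a2l.
Cox6a1: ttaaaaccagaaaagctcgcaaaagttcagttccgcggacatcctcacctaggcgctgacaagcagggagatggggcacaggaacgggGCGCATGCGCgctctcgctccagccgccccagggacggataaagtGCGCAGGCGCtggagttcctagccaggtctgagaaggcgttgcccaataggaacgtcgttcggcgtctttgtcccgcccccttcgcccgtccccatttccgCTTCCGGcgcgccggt
Ndufa7: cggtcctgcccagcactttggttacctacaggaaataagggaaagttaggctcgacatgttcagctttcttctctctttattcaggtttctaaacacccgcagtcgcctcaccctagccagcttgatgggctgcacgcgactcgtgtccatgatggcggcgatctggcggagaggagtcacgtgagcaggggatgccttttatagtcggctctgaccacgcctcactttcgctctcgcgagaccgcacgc
Ndufb11: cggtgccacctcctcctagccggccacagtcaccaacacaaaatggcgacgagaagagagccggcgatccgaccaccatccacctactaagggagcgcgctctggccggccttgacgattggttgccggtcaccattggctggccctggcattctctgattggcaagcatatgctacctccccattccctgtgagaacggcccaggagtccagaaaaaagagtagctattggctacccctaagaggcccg
Cox7a2l: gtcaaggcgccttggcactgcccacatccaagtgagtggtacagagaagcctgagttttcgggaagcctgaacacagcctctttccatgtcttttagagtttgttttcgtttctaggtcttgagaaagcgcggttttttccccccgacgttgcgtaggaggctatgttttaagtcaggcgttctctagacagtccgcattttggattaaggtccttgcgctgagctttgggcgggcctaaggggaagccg
The table holds a second start for Ndufa7, with the window chr17:33824395-33824644, which overlaps the one shown and holds neither motif. Cox6a1 holds 2 NRF1 matches and 1 ETS match, on the opposite strand, and the other 3 windows hold neither. Uqcrq and Cox6a2 are not in that table.

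Over the members with a window (78 of 97), 14 (17.9%) held the NRF1 letters in a window, against 4.23% of all 27025 genes in the table. The ETS letters were in 14 (17.9%) against 7.83%. The YY1 letters AAGATGGCG were in 1 member (1.28%) against 0.71%, the CRE letters TGACGTCA in 4 (5.13%) against 1.77%, and the MEF2 letters (CTA and TAG with 4 free bases between them), a motif of muscle genes, in 1 (1.28%) against 3.70%. Both strands were searched for each. A larger share of the members than of all genes in the table thus held the NRF1, ETS and CRE letters, with CRE resting on 4 members. The genes in the table were not limited to the tested genes. Members with NRF1 or ETS letters did not have the lower fold changes: the median was -0.12 over 25 tested members with either and -0.18 over 50 with neither, and the ranges overlapped.

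Fold change went with gene length and level across members, given as descriptions only. Over the 94 tested members, which share libraries and scaling, Spearman's rho was 0.31 between gene length and log2 fold change and -0.27 between mean FPKM and log2 fold change. The shorter and the more abundant members thus tended to the lower fold changes. Over all tested genes rho with length was 0.15. The members are short genes, with a median length of 793.5 bases against 3562 for all tested genes, and the part of length in the members' low median was not tested.

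The partner subunits encoded in mitochondrial DNA did not share the uniform direction. All 13 were tested, 0 were called, 8 had a log2 fold change below 0 and the median was -0.0044. They summed to 29833, 22029 and 20513 CPM in vehicle and 21133, 22589 and 21936 CPM in TP-18 tumors, with vehicle tumor 1 alone high. COX2, here the mitochondrially encoded copper-binding subunit of complex IV and not the prostaglandin synthase of the same name, had the smallest p of the list, with 102, 81.0 and 80.0 CPM against 70.3, 76.0 and 72.9 (-0.27, adjusted p = 0.142, edgeR). With TMM scaling its TP-18 values lay below all vehicle values, like those of its nuclear partners Cox4i1 and Cox6a1. By library totals its log2 fold change was -0.13 (adjusted p = 0.542, edgeR). COX2 made up a small part of the summed CPM of the list, and how multi-mapped reads were treated is not given.

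Genes that serve the same pathway outside the naming rule were taken from 4 further lists. Their calls stand beside 5.26% of all tested genes called lower and 7.09% called higher. Of 42 tested assembly factors for complexes I to V, 0 were called and the median log2 fold change was -0.04. Taco1, a translational activator of mitochondrial COX1, came nearest with 0.55 (adjusted p = 0.0548, edgeR). Of 23 tested genes of electron carriers and quinone synthesis 1 fell: Coq10b, which binds ubiquinone, had 44.2, 40.5 and 37.8 CPM against 24.2, 28.0 and 31.6 and fell by 0.55 ± 0.12 (adjusted p = 0.0251, edgeR). Its call was lost without vehicle tumor 2, TP-18 tumor 1 or TP-18 tumor 2, with an adjusted p of up to 0.0863, and by library totals (0.0888).

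Of 25 tested genes of the tricarboxylic acid cycle and pyruvate dehydrogenase, which supply the NADH and succinate used by complexes I and II, 4 fell and 0 rose, with a median of -0.20. The 4 that fell were 16% of the list, against 5.26% of all tested genes. With TMM scaling every TP-18 tumor lay below every vehicle tumor in 14 of the 25 (56%), and above in 2. The shares of all tested genes were 17.8% and 18%. By library totals the summed levels of the list overlapped, at 2857.5, 2813 and 2717 CPM in vehicle and 2744, 2601 and 2765 CPM in TP-18 tumors. Dlst, a subunit of the 2-oxoglutarate dehydrogenase complex, had 185, 199 and 185 CPM against 149, 153 and 159 and fell by 0.30 ± 0.07 (adjusted p = 0.0331, edgeR). Suclg2, a subunit of succinyl-CoA ligase, had 103, 110.3 and 107 CPM against 91.0, 83.0 and 87.5 and fell by 0.29 (adjusted p = 0.0372). The other two were the dehydrogenases Idh2 (-0.30, adjusted p = 0.0411) and Mdh2 (-0.27, adjusted p = 0.0404), named because the count is small, after their values were seen. Each of the 4 calls held in 1 of 6 fits with a tumor left out and was lost by library totals.

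Of 22 tested regulators of mitochondrial biogenesis, 1 rose and 1 fell (median -0.09). Ppargc1b, a coactivator of respiratory chain genes, had 4.58, 4.90 and 3.40 CPM in vehicle and 6.61, 7.23 and 7.82 CPM in TP-18 tumors. It rose by 0.75 ± 0.20 (adjusted p = 0.0471, edgeR), with no overlap, while the summed level of the members was lower in the same tumors. Ppard, a nuclear receptor of fatty acid oxidation, had 38.1, 39.5 and 41.6 CPM against 26.7, 31.0 and 30.7 and fell by 0.43 ± 0.09 (adjusted p = 0.0248). The call of Ppargc1b was lost in each of the 6 fits with a tumor left out (adjusted p 0.0502 to 0.164), and that of Ppard in 5 of them (up to 0.0827) and by library totals (0.0880).

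Cell type markers moved between the groups beside the members. For comparison, 7.09% of all tested genes were called higher and 5.26% lower. Of 16 tested T cell genes 15 rose (summed 54.0 to 78.0 CPM in vehicle, 180.4 to 226 CPM in TP-18 tumors), and of 17 macrophage and monocyte genes 5 rose (1787 to 2558 against 3134 to 3905 CPM). Of 6 tested red blood cell genes 4 fell (73.3 to 402 against 20.7 to 42.8 CPM), and of 7 adipocyte genes 1 rose (120 to 122 against 167 to 249.6 CPM). With 1 tumor left out, the calls of Alas2 and Hba-a1 each held in 2 of 6 fits, those without vehicle tumor 1 and without vehicle tumor 3 (adjusted p up to 0.115 and 0.136, edgeR). That of the adipocyte gene Pparg was lost without vehicle tumor 2, TP-18 tumor 2 or TP-18 tumor 3 (up to 0.0621). Fibroblast (11 tested) and endothelial genes (12 tested) had 0 calls. Of the endothelial genes 11 had a log2 fold change above 0 and 1 below, with a median of 0.66. Their sums overlapped, at 104 to 215 CPM in vehicle and 149 to 333 CPM in TP-18 tumors. Vehicle tumor 3, with TMM scaling the highest vehicle tumor for 54 of 94 members, stood apart in these lists. In vehicle tumors 1 to 3 fibroblast sums were 2542, 2651 and 6731 CPM and endothelial sums 207, 215 and 104 CPM. Red blood cell sums were 73.3, 189 and 402 CPM. Of 10 markers of colorectal epithelium only 4 were tested: Epcam had 0 to 24 counts per tumor, Vil1 0 to 8 and Cldn4 0 to 4, while the keratin Krt20 had 342, 315 and 263 CPM in vehicle and 184, 225 and 200.2 CPM in TP-18 tumors and fell by 0.60 ± 0.12 (adjusted p = 0.0204, edgeR). Cdh1, the epithelial cadherin, had 1.05, 2.08 and 2.40 CPM against 3.52, 3.75 and 5.00 (1.15 ± 0.34, adjusted p = 0.0647), so that its TP-18 values lay above all vehicle values. The epithelial markers Epcam, Vil1 and Cldn4 were thus at or near 0 in tumors labelled as CT26. Of 15 proliferation genes 1 rose (Top2a, 0.39, adjusted p = 0.0381, edgeR). With 1 tumor left out, the call of Krt20 held in 3 of 6 fits (adjusted p up to 0.0827) and that of Top2a in 2 (up to 0.131). The part of these shifts in the members' values was not tested.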

How the data were processed

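Per the labels, total RNA of 6 tumors (3 vehicle, 3 TP-18) was prepared with TRIzol and the VAHTS Universal V6 kit. The labels do not state separate mice, so p-values measure only the spread between these samples. The submitters' processing notes name fastp, HISAT2, HTSeq and GRCm38. Not given in the sources used here are tool versions, strandedness and the treatment of multi-mapped reads. Raw counts per gene were deposited. The FPKM values deposited by the authors equal the count divided by gene length and library total, since a whole-number length (tolerance 0.01) was recovered for all 23122 genes.

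Counts were tested with edgeR 4.0.16 in R 4.3.3. filterByExpr (minimum count 10, minimum total 15) left 14189 genes, and the robust two-sided quasi-likelihood F test was run on TMM-scaled libraries, with Benjamini-Hochberg adjustment and a threshold of 0.05. Fold changes use a prior count of 0.125. Each SE was derived from the test, as the size of the log2 fold change divided by the square root of the F statistic. It is therefore not independent of the p-value. Errors cover the spread between libraries, and PCR copies cannot be recognized. The procedure was tested on simulated data.

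Members and lists were chosen with earlier results of these data known. Named with values were called members, the most abundant and the uncalled member of smallest p in each complex, fixed isoform pairs and core subunits, untested members, and up to 2 genes of each other list. Of the listed genes, Coa1, Sco2, Pet117 and Esrrb were unmatched. Alternatives were RLE and upper-quartile scaling, library totals (added after seeing the data), no filter, 1 CPM in 3 samples, non-robust moderation, a replicate block, each tumor left out, an adjusted p under 0.10, DESeq2 1.42.0, limma-voom, and limma 3.58.1 on log2 FPKM with pseudocounts of 1 and 0.1.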

Additional observations from a re-analysis of the deposited data

How the results depend on the processing

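The count of members called higher was 0 under every alternative run. Against 6 lower, the count was 2 by library totals, a scaling chosen after seeing the data (1.89% of all genes). It was 2 with the replicate block (1.63%), 1 on log2(FPKM + 1) (1.52%) and 1 on log2(FPKM + 0.1) (1.62%). At an adjusted p under 0.10 it was 12 (9.96%). With 1 tumor left out it ranged from 0 to 11 (0.766% to 6.99% of all genes). It was 4 with upper-quartile scaling (4.59%) and 5 or 6 under the others (3.85% to 8.22%). The median log2 fold change was -0.035 by library totals, -0.031 on log2(FPKM + 1), -0.034 on log2(FPKM + 0.1) and -0.19 to -0.12 with 1 tumor left out.

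Ndufa7 and Uqcrq kept their calls under 13 of 17 alternatives, Ndufb11 and Cox7a2l under 8, Cox6a1 under 7 and Cox6a2 under 6. Directions turned only in uncalled genes. By library totals the log2 fold changes were 0.079 for Atp5a1, 0.0025 for Cox5a, 0.013 for Cox8a, 0.12 for Ndufs1, 0.095 for Sdha, 0.024 for Sdhc, 0.12 for Sdhd and 0.067 for Uqcrfs1. On log2(FPKM + 1) they were 0.077, 0.0011, 0.015, 0.11, 0.095, 0.027, 0.12 and 0.066 in the same order, and on log2(FPKM + 0.1) 0.077, 0.0011, 0.015, 0.12, 0.096, 0.027, 0.12 and 0.067. Uqcrc1 was at -0.013 without a filter and -0.0045 by DESeq2. With 1 tumor left out, it ranged from -0.042 to 0.12, Ndufs1 from -0.086 to 0.031, Sdha from -0.070 to 0.018, Sdhb from -0.025 to 0.064 and Sdhd from -0.092 to 0.038. The scalings differ in where they place the centre of all genes, and no other cause was tested.

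With 1 tumor left out, isoform share differences kept their sign but not their size, at -6.74 to -1.09 percentage points for Ndufa4l2, -1.02 to -0.27 for Cox7a1, -1.67 to -1.06 for Cox6a2, 0.068 to 0.18 for Cox8b and 0.11 to 0.23 for Cox4i2. Same-numbered tumors deviated from their group means with correlations of 0.25, -0.10 and -0.07. Between differently numbered tumors the correlations ran from -0.32 to 0.35, and not every tumor correlated best with its own number. With so few tumors per group, these correlations cannot decide whether same-numbered tumors share more than a number. With the replicate block as a term, 231 genes were lower over all against 747 without it, and the 2 members called were Ndufa7 (adjusted p = 0.0469, edgeR) and Uqcrq (0.0324).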
